A study of Bos taurus with 24 samples.

Results

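The miR-148 and miR-152 family was followed in small RNA libraries of lactating bovine mammary gland (MG) as the 5 rows of the deposited count tables named bta-miR-148a, bta-miR-148b, bta-miR-148c, bta-miR-148d and bta-miR-152. All 5 names were found among the 796 miRNAs that both tables list, and all 5 passed the filter on low counts in every comparison. The libraries came from MG biopsies of 5 Holstein (HOLS) and 6 Montbéliarde (MONT) cows. Each cow was biopsied before (CONT) and after (REST) 6 days of feed restriction, which the labels set at 60% of the net energy of lactation. No library came from unrestricted cows sampled at the later date, so restriction and elapsed time cannot be told apart, and the paper's methods place the biopsies of a cow in alternate rear glands of the udder. The restricted share of net energy given in the paper's methods differs from that of the labels.

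A miRNA is a short RNA that guides a silencing complex to partly complementary messenger RNAs, mainly through the few bases of its seed. The mature miR-148a, miR-148b and miR-152 share a seed and are therefore treated as 1 family, whose known targets include the DNA methyltransferase DNMT1. MiR-148a is an abundant miRNA of milk and of mammary epithelium, and it has been tied to lipid metabolism in liver and in the milk-secreting cell. MiR-148b and miR-152 are encoded inside genes for subunits of the COPI vesicle coat, whereas miR-148a has a locus of its own.

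In the RefSeq gene table of assembly ARS-UCD2.0, all 5 members had a gene record. MIR148B lay inside COPZ1. MIR152 and MIR148C overlapped each other inside COPZ2, a COPI subunit gene with NFE2L1 and CDK5RAP3 as its protein-coding neighbours. MIR148A and MIR148D overlapped each other between the protein-coding genes NFE2L3 and NPVF. The 5 members thus stood at 3 loci, and the table gives no strand for the overlapping records.

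Total miRNA counts per library ranged from 6087865 to 18913916, so the family was counted deeply, with at least 203087 counts of bta-miR-148a, 2641 of bta-miR-148b and 764 of bta-miR-152 in any library. Levels are given as CPM, which are counts divided by the library total after TMM scaling over the 22 libraries, and mature miRNAs are of nearly equal length, so no length correction was made. Markers of the tissue were present: 6 of 7 listed epithelial miRNAs had a row and all 6 were counted in every library, with at least 1503 counts of the scarcest, miR-429. Skeletal muscle markers were scarce, with 38.6 to 169 CPM for the sum of miR-1 and miR-133a. MONT cow 9615 stood apart from the other cows. Deviations of its CONT and REST libraries from their group means correlated at -0.25 across 396 miRNAs, against 0.09 to 0.65 in the other 10 cows, and each result that rests on it is given with and without it. Whether the labels of its 2 libraries were exchanged was not tested. An exchange would turn the direction of every change given for this cow, among them that of bta-miR-148b, which as labelled was lower at REST as in the other 5 MONT cows.

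Before members were compared, rows that shared reads were sought as pairs with a nearly fixed count ratio. Bta-miR-152 and bta-miR-148c had equal counts in 18 of 22 libraries and differed by at most 1 count in the others. They were therefore 1 measurement under 2 names. The count of bta-miR-148a was 1.32 to 1.48 times that of bta-miR-148d in all 22 libraries, with an SD of the log2 ratio of 0.044. Counting error alone would give an SD of 0.0027, so the ratio was not exactly fixed, although no other row kept so steady a ratio to either of them. Its group medians were 1.40 at CONT and 1.43 at REST in HOLS and 1.41 in both MONT groups. How reads matching both rows of a pair were assigned is not given in the sources used here. The 5 rows thus held 3 measurements, which are bta-miR-148a with bta-miR-148d, bta-miR-148b, and bta-miR-152 with bta-miR-148c.

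**Figure D1:**
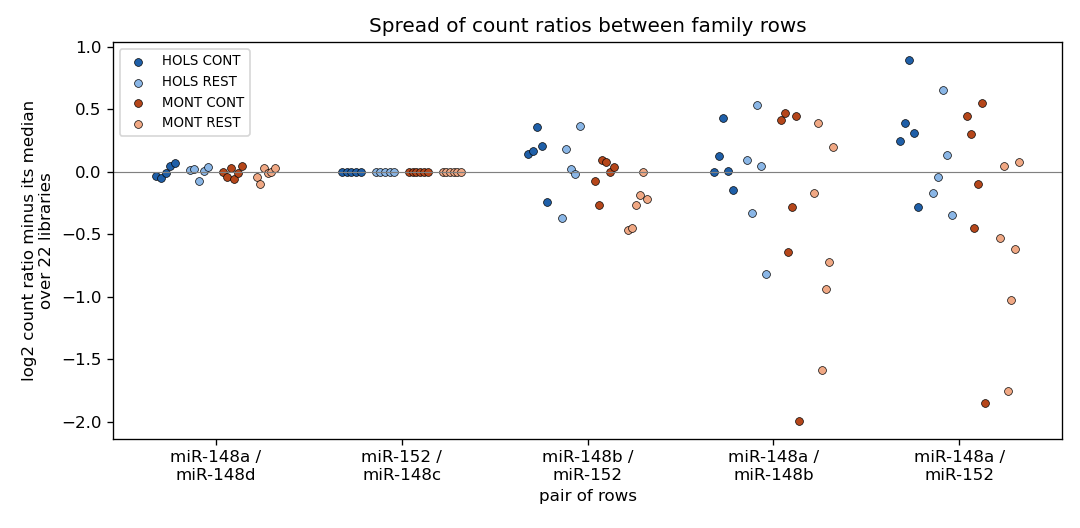
Log2 ratio of counts between 2 family rows in each of 22 libraries, minus the median of that ratio, for 5 pairs of rows (x axis), coloured by breed and period. The miR-148a to miR-148d and miR-152 to miR-148c ratios lie on or close to 0 in every library, with SDs of 0.044 and 0.0003, while the other 3 ratios spread with SDs of 0.24 to 0.70.

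The members differed in level by orders of magnitude. Averaged over all libraries, bta-miR-148a ranked 4 of 796 with 79343 CPM and bta-miR-148d ranked 6 with 56443 CPM. Bta-miR-148b ranked 70 with 520 CPM, and bta-miR-152 ranked 105 with 151 CPM. The family as listed took 3.71% to 21.4% of all miRNA counts of a library, nearly all of it in bta-miR-148a and bta-miR-148d. Without bta-miR-148d, whose reads may be the same, bta-miR-148a alone held 2.15% to 12.5%. Libraries had a bta-miR-148a count 41.5 to 239 times that of bta-miR-148b and 147.9 to 988 times that of bta-miR-152, so the order of the 3 measurements was the same in every library. Ligation of adapters differs between miRNA sequences, so these ratios compare rows as counted rather than molecules in the tissue.

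**Figure D2:**
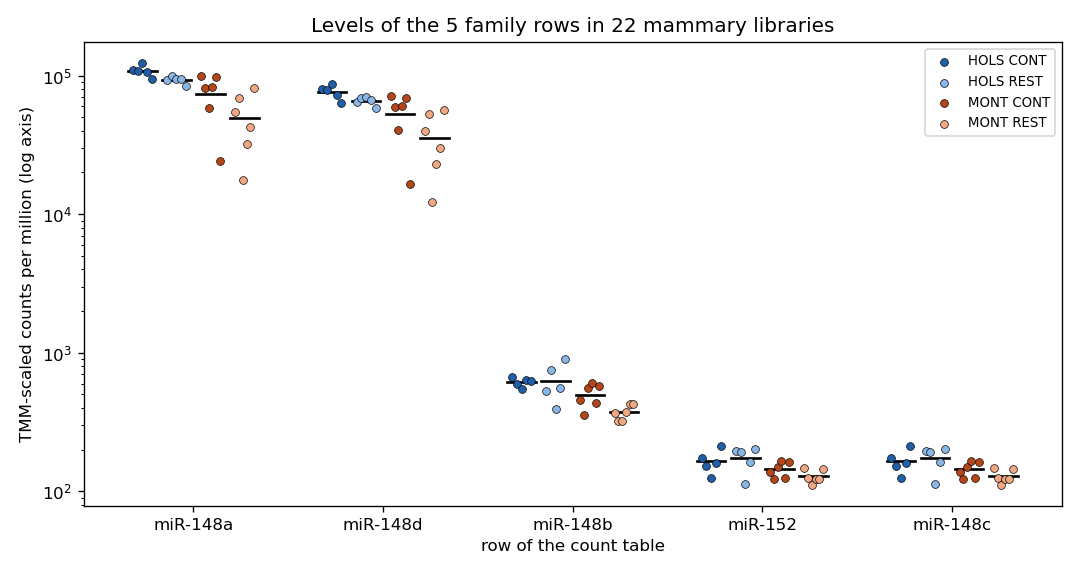
TMM-scaled CPM on a log axis for the 5 family rows in 4 groups, with 1 point per library and a line at the group mean (5 libraries in each HOLS group, 6 in each MONT group). MiR-148a and miR-148d lie at 12184 CPM or more in every library, miR-148b between 320 and 895 CPM, and miR-152 and miR-148c between 111 and 214 CPM.

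Among the members, bta-miR-148a was steady in HOLS and varied widely in MONT. In HOLS CONT it stood at 110311, 107398, 122385, 106077 and 93781 CPM in cows 1155, 1165, 2182, 8200 and 9195, with a mean of 107990 ± 10229 (SD, n = 5). In the REST libraries of the same cows it stood at 92809, 99134, 94100, 95202 and 84057 CPM, with a mean of 93060 ± 5561 (SD, n = 5). Levels were lower at REST in all 5 HOLS cows, at 0.769 to 0.923 times the CONT level, but the ranges of the periods overlapped. In MONT CONT bta-miR-148a ranged from 24068 to 100132 CPM with a median of 81744 and a mean of 73904 ± 28599 (SD, n = 6). In MONT REST it ranged from 17594 to 81161 CPM with a median of 48368 and a mean of 49477 ± 23568 (SD, n = 6). The highest library thus held 4.16 times the lowest in MONT CONT and 4.61 times in MONT REST, against 1.31 and 1.18 times in HOLS.

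The lowest MONT CONT level and the highest MONT REST level of bta-miR-148a both belonged to cow 9615, in which REST was 3.37 times CONT. In cows 1613, 1640, 1652, 2614 and 5663 the REST level was 0.543, 0.855, 0.302, 0.390 and 0.435 times the CONT level. The row was thus lower at REST in 5 of 6 MONT cows and in 10 of 11 cows of both breeds. Bta-miR-148d followed it in every cow, with a change of 1.76 on the log2 scale in cow 9615 against 1.75 for bta-miR-148a.

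Whereas bta-miR-148a was lower at REST in all 5 HOLS cows, bta-miR-148b was lower in 3 of 5. Its HOLS CONT levels were 670, 597, 550, 641 and 627 CPM in cows 1155, 1165, 2182, 8200 and 9195, and its REST levels were 526, 756, 394, 557 and 895 CPM. The spread between cows was wider at REST, with an SD of 199 against 45.6 CPM (n = 5 each), and 2 of 5 cows were higher at REST. In MONT, CONT libraries ranged from 354 to 609 CPM with a median of 503, and REST libraries from 320 to 429 CPM with a median of 372. The level was lower at REST in all 6 MONT cows, cow 9615 included, where it stood at 579 CPM before and 429 CPM after restriction.

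Bta-miR-152 varied least over all libraries. Its HOLS CONT levels were 175, 153, 124, 160 and 214 CPM in cows 1155, 1165, 2182, 8200 and 9195, and its REST levels were 196, 192, 112, 163 and 201 CPM. In MONT it ranged from 123 to 166 CPM at CONT, with a median of 144, and from 111 to 147 CPM at REST, with a median of 124. It was lower at REST in 2 of 5 HOLS and 4 of 6 MONT cows. Its log2 level had an SD of 0.28 over 22 libraries, against 0.41 for bta-miR-148b and 0.75 for bta-miR-148a. In HOLS alone that order did not hold, with SDs of 0.30, 0.32 and 0.16.

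**Figure D3:**
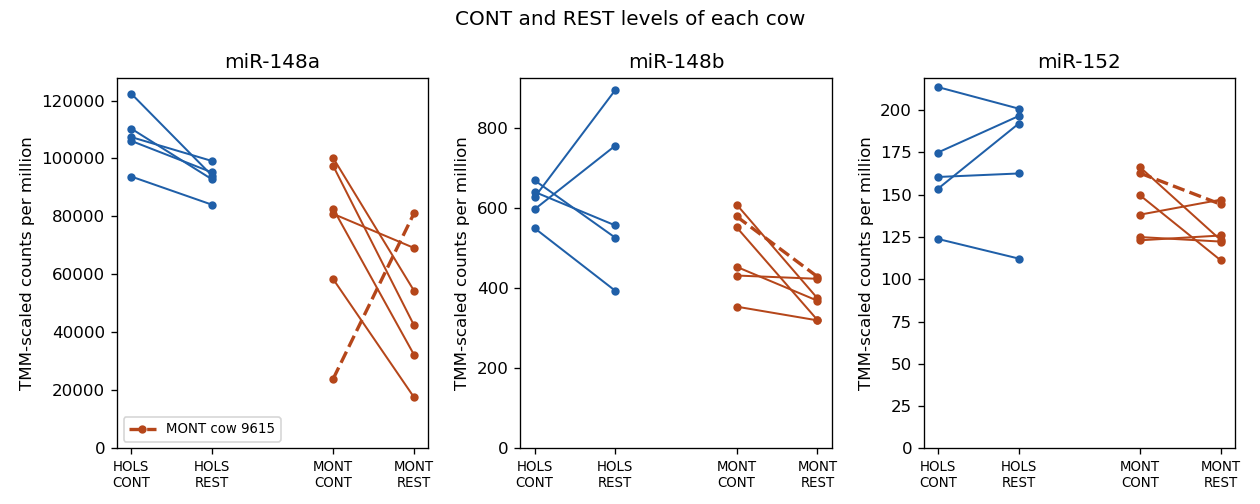
TMM-scaled CPM of miR-148a, miR-148b and miR-152 at CONT and REST, with 1 line per cow (5 HOLS, 6 MONT). The dashed line is MONT cow 9615, which had 24068 CPM of miR-148a at CONT and 81161 CPM at REST while the other 10 cows were lower at REST.

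The study asked whether feed restriction changed MG miRNAs within each breed. With edgeR's quasi-likelihood test, none of the 5 rows passed the adjusted threshold in HOLS, where 9 of 374 miRNAs tested did (2.41%). Bta-miR-148a had a log2 fold change of REST over CONT of -0.19 (SE 0.09, Benjamini-Hochberg adjusted p = 0.212), which is 0.875 times the CONT level with a 95% interval of 0.765 to 1.001. Bta-miR-148d had -0.19. Bta-miR-148b had 0.05 (SE 0.20, adjusted p = 0.947) and bta-miR-152 had 0.08 (SE 0.19, adjusted p = 0.852), and with scaling by library size alone these turned to -0.14 and -0.09. The intervals of bta-miR-148b and bta-miR-152 reached from 0.766 to 1.40 and from 0.797 to 1.41 times the CONT level, so changes of that size cannot be told from none. With the cow as a block 61 miRNAs passed (16.3%), and again no member was among them.

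In MONT no miRNA passed among the 349 tested (0%), where edgeR found 47 at an unadjusted p under 0.05 and DESeq2 found none after adjustment. Bta-miR-148a had a log2 fold change of -0.59 (SE 0.40, adjusted p = 0.448), bta-miR-148b -0.42 (SE 0.16, adjusted p = 0.314) and bta-miR-152 -0.17 (SE 0.14, adjusted p = 0.528). Bta-miR-148b was the member measured most precisely relative to its change, with an unadjusted p of 0.0203 and an interval of 0.592 to 0.949 times the CONT level. With the cow as a block and all cows kept, no miRNA passed. Bta-miR-148a then had -0.70 (adjusted p = 0.382) and bta-miR-148b -0.41 (adjusted p = 0.292). Without cow 9615, bta-miR-148a had -1.02 (SE 0.32, adjusted p = 0.0555) and bta-miR-148b -0.45 (SE 0.16, adjusted p = 0.0839), and 46 miRNAs passed. With cow 9615 left out and the cow as a block, in a fit added after the data were seen, bta-miR-148a had -1.13 (adjusted p = 0.00182), bta-miR-148b had -0.44 (adjusted p = 0.0231), and 140 of 358 miRNAs passed (39.1%). Bta-miR-152 did not pass there, with -0.20 (adjusted p = 0.209). Cow 9615 was the only MONT cow with bta-miR-148a higher at REST. Leaving it out therefore favours a fall of that row and adds no support.

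Over both breeds, with breed as a covariate, 35 of 388 miRNAs passed (9.02%), 8 higher and 27 lower at REST, and no member was among them. Bta-miR-148a had a log2 fold change of -0.42 (SE 0.23, adjusted p = 0.214), bta-miR-148b -0.23 (SE 0.14, adjusted p = 0.249) and bta-miR-152 -0.08 (SE 0.12, adjusted p = 0.677). The block on the cow raised the number of miRNAs that passed to 56 (14.4%) and left all members above the threshold. Cow 9615, the only cow in which bta-miR-148a was higher at REST, decided its call. Leaving it out therefore favours a fall and adds no support. Without it the row fell by 0.60 on the log2 scale (SE 0.19, adjusted p = 0.0199), to 0.659 times the CONT level, and bta-miR-148d fell with it (adjusted p = 0.0258). In that fit 121 of 388 miRNAs passed (31.2%), and with the block as well 171 did (44.1%), so a call there was common. Bta-miR-148b had -0.19 (adjusted p = 0.321) and bta-miR-152 -0.05 (adjusted p = 0.781) without cow 9615.

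Whether the breeds responded differently was addressed with an interaction term. No miRNA passed among the 388 tested (0%), 3 had an unadjusted p under 0.05, and DESeq2 also called none. The HOLS change minus the MONT change was 0.32 (SE 0.46) for bta-miR-148a, 0.41 (SE 0.26) for bta-miR-148b and 0.20 (SE 0.23) for bta-miR-152, each with an adjusted p of 0.991. For bta-miR-148a the interval ran from -0.63 to 1.28, which spans differences in either direction. With the cow as a block and all cows kept, bta-miR-148a had 0.45 (SE 0.50, adjusted p = 0.985) and no miRNA passed. Without cow 9615, which alone opposed the fall in MONT, the difference was 0.75 (SE 0.34, adjusted p = 0.521). Leaving it out therefore favours a difference and adds no support. Leaving that cow out and blocking on the cow gave 0.87 (SE 0.22, adjusted p = 0.0389), in a fit added after the data were seen in which 23 of 388 miRNAs passed (5.93%).

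The breeds were compared within each period, HOLS over MONT. Before restriction 2 of 360 miRNAs passed (0.556%), and no member was among them, with log2 fold changes of 0.48 (SE 0.29, adjusted p = 0.353) for bta-miR-148a, 0.26 (SE 0.15, adjusted p = 0.340) for bta-miR-148b and 0.14 (SE 0.16, adjusted p = 0.646) for bta-miR-152. Without cow 9615 bta-miR-148a had 0.30 (SE 0.17, adjusted p = 0.364). After restriction 58 of 378 passed (15.3%), of which bta-miR-148b was the only member. It was 1.66 times as high in HOLS (log2 fold change 0.73, SE 0.20, adjusted p = 0.0276), at 626 ± 199 CPM (SD, n = 5) against 373 ± 47.5 CPM (SD, n = 6), and the ranges overlapped through HOLS cow 2182 at 394 CPM. This call depended on which cows were included. It was lost without HOLS cow 1165, 8200 or 9195 and without MONT cow 1613, 1652 or 2614, with adjusted p-values from 0.0501 to 0.0954. Without HOLS cow 9195 the log2 fold change was lowest, at 0.53.

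Bta-miR-148a was higher in every HOLS REST library, at 84057 CPM or more, than in any MONT REST library, at 81161 CPM or less. Its fitted ratio of 1.83 had an interval of 1.16 to 2.89 and missed the threshold (log2 fold change 0.87, SE 0.31, adjusted p = 0.0686). DESeq2 put it just past the threshold (adjusted p = 0.0495). So did leaving out MONT cow 1640 (0.99, adjusted p = 0.0456). Leaving out MONT cow 9615 did as well (1.07, adjusted p = 0.0229), and there 77 of 378 miRNAs passed (20.4%). These cows held the highest MONT REST levels, so leaving either out raises the difference. Bta-miR-152 was 1.32 times as high in HOLS REST (log2 fold change 0.40, SE 0.17, adjusted p = 0.112) and passed only without HOLS cow 2182 (0.52, adjusted p = 0.0297) among the single cows left out. All 5 rows were higher in HOLS in both periods, but 4 rows are 2 measurements. Breed cannot be told apart from other differences between the animals or the libraries of each breed. The paper reports more short reads and adapters in MONT libraries, and names their lower quality as a possible reason for finding no changed miRNA in MONT.

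**Figure D4:**
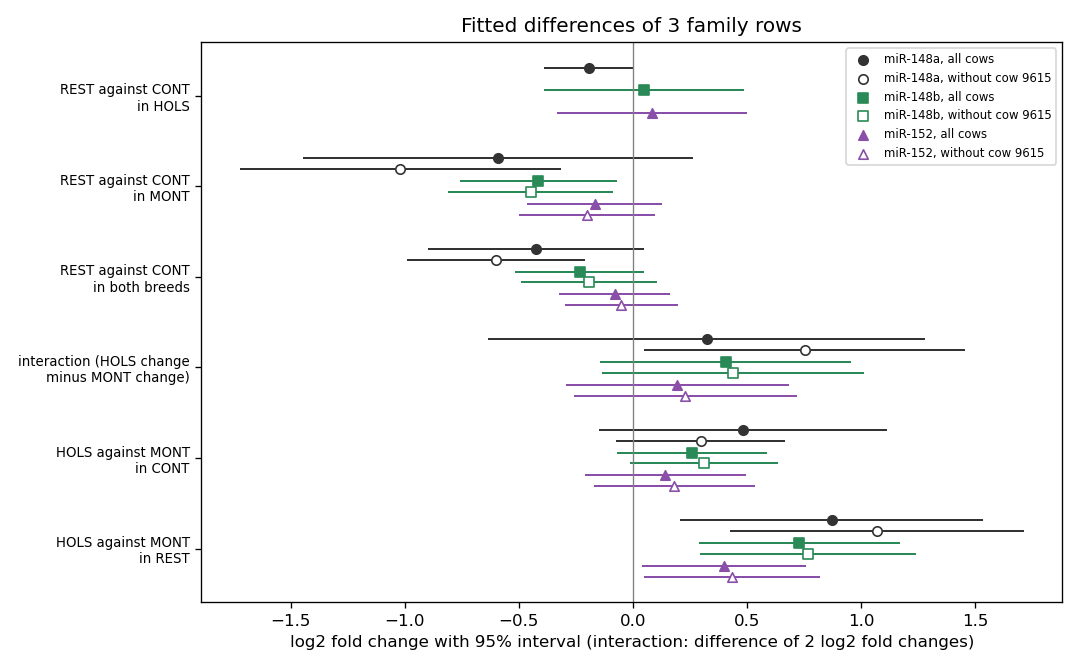
Log2 fold changes of miR-148a, miR-148b and miR-152 with 95% intervals in 6 comparisons fitted with edgeR. Filled symbols are fits with all cows and open symbols fits without MONT cow 9615, whose absence moves miR-148a from -0.59 to -1.02 in MONT and from 0.87 to 1.07 between breeds at REST.

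Ratios between members do not depend on library scaling and show whether the family moved as a unit. The log2 ratio of bta-miR-148a to bta-miR-152 was lower at REST in 10 of 11 cows, with a mean change of -0.37 ± 0.87 (SD, n = 11). The exact two-sided sign-flip test over cows gave p = 0.201, or 0.302 after adjustment over the 6 ratio tests. Cow 9615 was the only cow in which it was higher. Without that cow the mean was -0.60 and all other 10 cows were lower (exact sign-flip p = 0.00195, adjusted p = 0.0117). This is the smallest p that 10 cows can give. Leaving out the only opposing cow fixed it in advance, so it adds no support. The ratio of bta-miR-148b to bta-miR-152 was lower at REST in 8 of 11 cows, with a mean change of -0.17 ± 0.30 (SD, n = 11, exact sign-flip p = 0.0928, adjusted p = 0.186). Without HOLS cow 9195 it was -0.25 (exact sign-flip test, adjusted p = 0.0469). In that cow bta-miR-148b was 1.43 times and bta-miR-152 0.940 times CONT, the largest rise of this ratio. Leaving it out therefore favours a fall and adds no support. The ratio of bta-miR-148a to bta-miR-148b changed by -0.19 ± 0.90 (SD, n = 11, exact sign-flip p = 0.528), and without cow 9615 by -0.43 (exact sign-flip test, adjusted p = 0.0635).

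Between breeds, with the mean of both periods as 1 value per cow, the log2 ratio of bta-miR-148b to bta-miR-152 was 1.87 ± 0.12 in 5 HOLS cows and 1.65 ± 0.14 in 6 MONT cows (SD). The difference of 0.23 had p = 0.0238 in the exact two-sided permutation test and 0.143 after adjustment. The cows' values overlapped, from 1.68 to 1.98 in HOLS and from 1.44 to 1.79 in MONT. With CONT libraries alone this difference was 0.15 (exact permutation p = 0.201, adjusted p = 0.403). The ratio of bta-miR-148a to bta-miR-152 was 0.59 higher in HOLS (exact permutation p = 0.0758, adjusted p = 0.186) and that of bta-miR-148a to bta-miR-148b 0.36 higher (exact permutation p = 0.260, adjusted p = 0.312). Without cow 9615 these differences were 0.49 and 0.26. No ratio between members passed after adjustment with all cows.

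The miRNAs whose pattern was most like each member were sought among those with a mean of at least 100 CPM, by the SD over 22 libraries of their log2 ratio to the member. For bta-miR-148a these were miR-200c, an epithelial miRNA (SD 0.23), miR-30f (0.35) and miR-429 (0.37), against a median of 0.80 over 113 miRNAs. The count of bta-miR-148a was 18.3 to 31.0 times that of miR-200c, while bta-miR-148a itself varied 6.96-fold and miR-200c 8.18-fold between libraries. Cow 9615 showed the same departure in miR-200c, which stood at 1271 CPM at CONT and 3170 CPM at REST. MiR-200c was chosen for its steady ratio to bta-miR-148a over these libraries, those of cow 9615 included. A like departure in it therefore follows from that choice. In the other 10 cows miR-200c was lower at REST, to between 0.265 and 0.952 times CONT.

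Bta-miR-148b and bta-miR-152 were each most like the other (SD 0.24). Bta-miR-148b was next closest to miR-183 (0.31), with a median of 0.55 over 114 miRNAs. Bta-miR-152 was next closest to miR-126-5p, an endothelial miRNA (0.25), and miR-98 (0.27), with a median of 0.45 over 113 miRNAs. A row of constant level would give 0.28, the SD of the log2 level of bta-miR-152 itself. Its closest values lay little below that, so they show little shared pattern. These SDs are descriptions over libraries that share cows, depth and scaling.

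**Figure D5:**
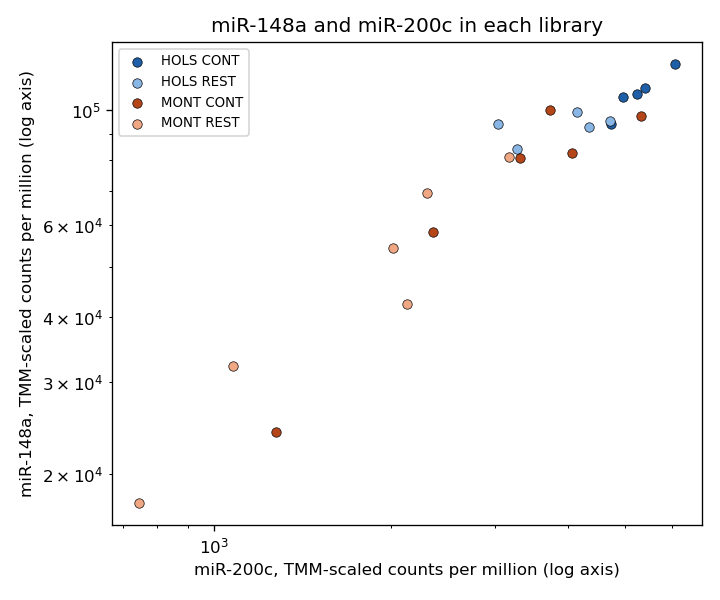
TMM-scaled CPM of miR-148a (y) against miR-200c (x) in each of 22 libraries, both on log axes and coloured by breed and period. The points follow a narrow band over a range of 17594 to 122385 CPM of miR-148a, with count ratios of 18.3 to 31.0. MiR-200c was chosen for the smallest spread of this ratio, so a band narrower than for other miRNAs follows from the choice.

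In a bulk biopsy, fewer cells of a type and less RNA per cell cannot be told apart. The summed level of the 6 epithelial miRNAs with a row (miR-200a, miR-200b, miR-200c, miR-141, miR-429 and miR-205) ranged in HOLS from 37085 to 44876 CPM before and from 24699 to 56518 CPM after restriction. The MONT ranges were 17184 to 46064 CPM and 12652 to 30697 CPM. In cow 9615 it was 17184 CPM at CONT, the lowest of its group, and 30697 CPM at REST, the highest of its group, as for bta-miR-148a. The row of miR-141 carried 54.8% to 84.6% of this sum. The 6 smooth muscle and stromal miRNAs (miR-143, miR-145, miR-199a-3p, miR-199a-5p, miR-199b and miR-214) summed to 149228 to 216644 CPM in HOLS CONT and 218571 to 289108 in HOLS REST. In MONT they summed to 187826 to 367049 CPM at CONT, where cow 9615 was the highest, and to 214103 to 464104 CPM at REST. This sum was nearly all miR-143, which carried 98.3% to 99.6% of it, so it describes that row rather than the 6 markers. None of these markers was at 0 in any library, and the part of tissue makeup in the differences of bta-miR-148a was not tested.

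Over both breeds, where 9.02% of all miRNAs passed, 1 of 6 epithelial miRNAs passed the test without the block and was lower at REST, which was miR-200b at 0.636 times CONT (adjusted p = 0.00656). The epithelial list had a median log2 fold change of -0.37, beside -0.03 over all 388 miRNAs tested. Its member miR-205 went the other way, at 1.13 times CONT, and did not pass. Of the 6 smooth muscle and stromal miRNAs 1 passed, miR-199b, which was 1.37 times as high at REST (adjusted p = 0.0470), and the list had a median of 0.45. With the cow as a block none of these 6 passed. In HOLS with that block, where 16.3% of all miRNAs passed, 3 of 6 epithelial miRNAs were lower at REST. Another 2 epithelial miRNAs were higher without passing. Of the smooth muscle and stromal miRNAs 2 of 6 passed and were higher at REST. Without cow 9615, with bta-miR-148a past the threshold along with 31.2% of all miRNAs, 4 of 6 epithelial miRNAs were lower at REST (miR-200a, miR-200b, miR-200c and miR-429, at 0.566 to 0.740 times CONT) and 5 of 6 smooth muscle and stromal miRNAs were higher. The other epithelial miRNAs, miR-141 at 0.844 and miR-205 at 1.16 times CONT, did not pass. The list medians were then -0.44 and 0.66, beside 0.01 over all miRNAs tested. In HOLS REST over MONT REST, where 15.3% of all miRNAs passed, miR-200c and miR-141 were higher in HOLS, 1.99 and 2.09 times, and miR-205, a miRNA of basal epithelium, was lower, while 3 of 6 smooth muscle and stromal miRNAs were lower. The list medians were 0.41 and -0.75, beside -0.03 over all 378 miRNAs tested.

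Other cell types were followed by lists of their own. Leukocyte miRNAs (6 tested, among them miR-142-5p, miR-223 and miR-155) summed to 1961 to 4641 CPM over all groups, and the 2 arms of miR-126, an endothelial miRNA, to 18583 to 42622 CPM. Red blood cell miRNAs (miR-451, miR-144 and miR-486) summed to 1212 to 5226 CPM. With all cows and without the block, neither leukocyte nor red blood cell miRNAs passed in any of the 6 comparisons. Of all miRNAs, 0% to 15.3% passed in these comparisons. Of the miR-126 arms 1 passed, higher in HOLS REST than in MONT REST, the comparison with 15.3%. Skeletal muscle miRNAs did not pass either. With the cow as a block, 3 of 6 leukocyte miRNAs, 1 of 3 red blood cell miRNAs and 1 of the 2 miR-126 arms were higher at REST in HOLS, where 16.3% of all miRNAs passed. Among 14 miRNAs known as abundant in milk, with all cows and without the block, none passed between periods in HOLS, MONT or both breeds. Of all miRNAs, 2.41%, 0% and 9.02% passed there. With the block 1 of the 14 was lower at REST in HOLS, where 16.3% of all miRNAs passed. Without the block the median log2 fold change of the 14 over both breeds was -0.04. Between breeds at REST 1 of the 14 was higher (miR-200c) and 1 lower in HOLS, with a median of 0.29. There 15.3% of all miRNAs passed. Without cow 9615, 5 of the 14 passed over both breeds, 2 higher and 3 lower at REST, a share near the 31.2% of all miRNAs that passed there. MiR-200a and miR-200c, which are also on the epithelial list, were among those lower.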

How the data were processed

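Small RNA was prepared from MG biopsies with TruSeq small RNA kits and sequenced as single-end reads on a HiSeq instrument (bcl2fastq 2.17.1.14, per the submitters' processing notes). The authors trimmed reads with FASTX, quantified and annotated them with ncPRO-seq and miRDeep2 against btau5.0.1 and miRBase, and deposited raw counts per mature miRNA. The deposited tables also hold normalized counts and the authors' fold changes and p-values from DESeq2 1.18.1, none of which were used. A HOLS cow named in the labels has no column and was not analysed here.

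Counts were fitted with edgeR 4.0.16 in R 4.3.3 (TMM scaling, filterByExpr with a minimum count of 10, quasi-likelihood F test, Benjamini-Hochberg adjustment over all miRNAs tested, threshold 0.05), without a block, as the paper's methods name none. Intervals use the test's SE. Breeds were compared on the 11 libraries of a period. Libraries of 1 cow are paired by the labels. Their deviations from group means correlated at 0.09 to 0.65 in 10 cows and at -0.25 in cow 9615. P-values measure the spread between cows in the breed comparisons within a period and in the ratio tests. Fits of both periods without the block treat the 2 libraries of a cow as separate, so theirs measure the spread between libraries. With the block they measure the spread of changes within cows. Ratios of rows were tested with exact sign-flip and permutation tests over cows (Python 3.11.15). Rows with an SD of the log2 ratio of at most 0.1 were taken to share reads. Named miRNAs are the 5 members, the 3 most like each among those with at least 100 CPM, and the lists. Members and lists were chosen with earlier results of these data known. Alternatives were DESeq2 1.42.0, other scalings, no filter, shared rows summed, library sizes without the family, the cow as a replicate block, 1 fit of all libraries and each cow left out. The fits were run on simulated counts with known changes. Those counts held no differences between cows, so the handling of paired libraries was not tested. Depth ranged from 6087865 to 18913916 counts. No mature sequences are printed.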

Additional observations from a re-analysis of the deposited data

How the results depend on the processing

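For bta-miR-148a, bta-miR-148b, bta-miR-152 and their ratios, 387 alternative values were computed. Of these, 363 kept the direction and the side of the threshold, 11 passed where the value with all cows had not, 6 lost the threshold and 7 changed sign. The sign changed for values near 0. In HOLS, REST against CONT, bta-miR-148b had -0.14 by library size only, -0.014 with the cow as a replicate block and -0.018 with that block in DESeq2, and bta-miR-152 and bta-miR-148c both had -0.093 by library size only. That scaling moved the median log2 fold change of all miRNAs to -0.15 in HOLS and to -0.15 between breeds at REST. Leaving out 1 cow gave bta-miR-148b -0.18 to 0.13 in HOLS.

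With 1 cow left out at a time, bta-miR-148a over both breeds had -0.60 to -0.32, with the threshold passed without cow 9615 alone. Bta-miR-152 and bta-miR-148c there both had -0.095 to about 0, at 0.0043 and 0.0045 without MONT cow 2614. Between breeds at REST, leaving out 1 cow gave 0.67 to 1.07 for bta-miR-148a, 0.53 to 0.86 for bta-miR-148b and 0.31 to 0.52 for bta-miR-152. The mean change of the log2 ratio to bta-miR-152 was -0.60 to -0.27 for bta-miR-148a and -0.25 to -0.14 for bta-miR-148b.

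With the cow as a replicate block and cow 9615 left out, a setting added after the data were seen, bta-miR-148a had -1.13 and bta-miR-148b -0.44 in MONT, and bta-miR-148a had -0.65 over both breeds and 0.87 for the interaction. DESeq2 gave bta-miR-148a 0.87 between breeds at REST. The replicate block with all cows changed no other call of a member.

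Counts of miRNAs past the threshold moved more than the members. In HOLS 9 miRNAs passed, against 26 with DESeq2, 20 by library size only, 16 with the shared rows summed or with library sizes without the family, 5 with no filter, 61 with the block and 70 with the block in DESeq2. Over both breeds 35 passed, against 55 with DESeq2, 13 with no filter, 56 with the block and 109 with the block in DESeq2. Between breeds at CONT 2 passed, against 20 with DESeq2, 1 by library size only, 0 with library sizes without the family and 29 in 1 fit of all libraries. With 1 cow left out, 3 to 14 passed in HOLS, 0 to 46 in MONT, 11 to 121 over both breeds, 0 to 6 between breeds at CONT and 38 to 77 at REST. The highest in MONT, over both breeds and at REST came without cow 9615. The cause of these shifts was not tested.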
